A study of Homo sapiens with 9 samples.

Results

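The WNT pathway genes described here are 47 of the 19775 genes measured with a probe set of a single symbol on 9 Affymetrix arrays of human embryonic stem cells (hESC). They were chosen by a rule on the symbols of the platform annotation: 17 WNT ligands, 9 FZD receptors, 8 co-receptors, LGR receptors and RSPO ligands, 10 secreted antagonists, and the 3 feedback and nuclear genes AXIN2, NKD1 and LEF1. TCF7 and WNT3A were not analysed here, and FZD8 and WNT3, which the annotation places on probe sets together with another symbol, were not used. Where a gene had several probe sets, the brightest by its mean over all 9 arrays stands for it. The study set cells kept for 14 days under 2 conditions beside the undifferentiated cells they came from. In the FGF3+10 group, dissociated cells were plated on laminin and kept in the serum-free medium DFNB (with N2 and B27), to which FGF3 and FGF10 were added (50 ng/ml of either), growth factors that act in the formation of the inner ear. The DFNB group had the same plating and medium with neither FGF. The hESC group was taken undifferentiated at day 0, from cultures grown on feeders of mouse embryonic fibroblasts, with serum replacement and basic FGF at 4 ng/ml. Each group held 1 array of each of the established lines Shef3, H14 and Shef1, so a group's spread holds the differences between its lines, and no line was repeated within a group.

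WNT proteins are lipid-modified secreted ligands that bind FZD receptors at the cell surface. In the canonical branch, LRP5 or LRP6 joins the complex, beta-catenin escapes degradation and acts in the nucleus with factors such as LEF1. RSPO proteins, through LGR receptors, keep FZD and LRP proteins at the membrane, while DKK proteins block LRP and the SFRP, FRZB and WIF1 proteins bind the ligands themselves. In embryonic stem cells the pathway takes part in the choice between self-renewal and germ layer formation, and in the head region of the embryo WNT signals help to place the neural plate, the neural crest and the otic placode.

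Levels are deposited log values, taken as log2 although no source states the base, with a median of 3.20 on every array. Within each group they are given in the order Shef3, H14, Shef1. A difference is the mean of the first group minus that of the second, with its standard error (SE), and a gene was called at a limma p below 0.05 after Benjamini-Hochberg adjustment over all 19775 genes. Where 2 differences from hESC stand together, the first is that of FGF3+10 and the second that of DFNB. The level 4 is used as a mark for low values. The median SD within groups was 0.919 for the 8273 genes averaging below it and 0.448 for the other 11502. Of the members, 36 averaged 4 or more in at least 1 group, 21 reached 4 on all 9 arrays and 8 on none.

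The arrays of the lines stood apart in ways that touch the results. Poly-A spike-ins, which are bacterial RNAs added to each sample ahead of labelling, read 7.21 to 7.28 on the Shef1 arrays, against 4.72 to 5.43 on those of the other lines. The mean over 9 pluripotency markers was 2.50, 8.82 and 8.85 in FGF3+10 and 2.43, 7.01 and 8.54 in DFNB, against 11.02, 10.49 and 9.23 in hESC. As a mean these markers were thus high in hESC as labelled and low at day 14 in Shef3. In Shef1 the mean remained near that of its own hESC array. In H14 it fell below the 10.49 of its hESC array, and every marker was lower in both media. Single markers varied, and ZFP42 was at -0.48 in hESC Shef1, which lowers the mean of that array. In Shef3 at day 14, NANOG was at -7.62 in FGF3+10 and -10.17 in DFNB, which lowers the means, while SOX2 stood at 8.71 and 7.91. Mesenchyme markers (10 measured) averaged 10.08, 8.09 and 6.77 in FGF3+10 and 10.90, 9.98 and 8.62 in DFNB, against 7.64, 8.25 and 8.76 in hESC. Neural progenitor markers (10 measured) averaged 6.55, 6.80 and 8.34 in FGF3+10 and 6.32, 4.91 and 7.70 in DFNB, against 3.50, 4.50 and 4.03 in hESC. Endoderm markers (6 measured) averaged 4.11, 4.04 and 3.34 in FGF3+10 and 2.60, 4.37 and 4.98 in DFNB, against 8.43, 7.53 and 6.92 in hESC. Trophoblast markers (5 measured) averaged 6.46, 7.27 and 5.22 in FGF3+10 and 7.58, 7.31 and 5.68 in DFNB, against 6.02, 6.11 and 4.49 in hESC. Neural crest markers (6) averaged 5.46 to 6.74 and neuron markers (6) 4.50 to 7.74 over the 9 arrays. Within the neural crest list, TFAP2B was higher at day 14 in every line, and FOXD3 was lower in Shef3 and H14. Of the 10 neural progenitor markers, 7 averaged higher than hESC in each medium, and NES, FABP7 and OTX2 did not. In such bulk samples, fewer cells of a type and less RNA per cell cannot be told apart. The part of these markers, of the spike-ins and of mouse feeder RNA in the results was not tested.

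The promoters of the 3 genes that stood out at day 14, FZD1, WNT5B and WNT2B, are shown first, to give the sequence next to the annotated starts of the genes that changed. The arrays do not tell which start was used. Each run is the 250 bases before a RefSeq start on the plus strand of GRCh38.p14. WNT5B and WNT2B have 2 starts each in the RefSeq table. The DKK1 promoter is shown because it alone among the members with a RefSeq window held the motif described after it, whose letters are in capitals.
FZD1, chr7:91264183-91264432: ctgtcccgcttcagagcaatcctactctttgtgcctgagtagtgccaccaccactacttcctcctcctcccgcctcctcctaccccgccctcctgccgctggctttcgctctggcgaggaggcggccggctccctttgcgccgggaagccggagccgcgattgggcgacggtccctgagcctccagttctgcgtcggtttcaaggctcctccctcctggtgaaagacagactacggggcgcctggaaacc
WNT5B, first start, chr12:1616806-1617055: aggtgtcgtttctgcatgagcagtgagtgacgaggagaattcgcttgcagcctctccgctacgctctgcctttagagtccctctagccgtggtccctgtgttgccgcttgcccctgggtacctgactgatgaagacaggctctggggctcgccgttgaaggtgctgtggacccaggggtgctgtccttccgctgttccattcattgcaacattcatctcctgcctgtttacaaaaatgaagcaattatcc
WNT5B, second start, chr12:1628981-1629230: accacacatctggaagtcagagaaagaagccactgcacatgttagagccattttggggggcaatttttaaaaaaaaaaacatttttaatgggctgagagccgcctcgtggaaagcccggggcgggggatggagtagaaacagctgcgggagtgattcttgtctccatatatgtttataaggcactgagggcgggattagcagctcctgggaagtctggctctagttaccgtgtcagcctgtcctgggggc
WNT2B, first start, chr1:112466291-112466540: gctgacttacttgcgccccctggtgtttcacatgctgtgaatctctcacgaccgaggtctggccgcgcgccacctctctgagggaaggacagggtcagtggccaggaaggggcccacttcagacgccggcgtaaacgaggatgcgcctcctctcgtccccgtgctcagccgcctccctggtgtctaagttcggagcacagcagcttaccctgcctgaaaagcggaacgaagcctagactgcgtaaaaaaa
WNT2B, second start, chr1:112508715-112508964: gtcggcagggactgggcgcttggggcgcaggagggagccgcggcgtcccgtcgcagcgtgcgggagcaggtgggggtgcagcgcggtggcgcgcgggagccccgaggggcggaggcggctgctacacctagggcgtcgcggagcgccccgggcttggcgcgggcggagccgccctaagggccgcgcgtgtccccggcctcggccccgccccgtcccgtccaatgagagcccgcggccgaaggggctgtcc
DKK1, chr10:52314031-52314280: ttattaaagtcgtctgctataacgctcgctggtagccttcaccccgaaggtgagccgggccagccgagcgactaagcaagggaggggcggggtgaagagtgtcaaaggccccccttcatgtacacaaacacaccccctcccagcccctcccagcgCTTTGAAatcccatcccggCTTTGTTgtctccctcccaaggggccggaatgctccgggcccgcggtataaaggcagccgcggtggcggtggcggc

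The motif searched was that of the TCF/LEF factors, CTTTG followed by AA, AT, TA or TT on either strand, over windows of 250 bases before to 50 after the start. It occurred in 13.8% of the 35116 windows of all genes. RefSeq windows matched 30 of the 47 members (33 windows), and DKK1 was the 1 member with a match, or 3.33% of those 30 (exact 95% binomial interval 0.084 to 17.2%, counting error only). This share and its interval count genes, while the 13.8% counts windows. By window, 1 of the 33 held the motif. Its matches began 95 and 76 bases before the start. GC content was 65.2% in the FZD1 sequence, 54.8 and 50.8% in those of WNT5B, 60.4 and 80.0% in those of WNT2B and 62.8% in that of DKK1. Over the 300-base windows the median was 69.7% for members and 58.7% for all genes. A match describes letters in a window and says nothing of binding.

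At day 14, FZD1 and WNT5B were higher than in hESC in both media, and no member was called lower. In FGF3+10 against hESC 2 of 47 members were called, both higher, and 0.177% of all genes were called in that comparison (0.0961% higher). In DFNB against hESC the same 2 members were called, against 0.202% of all genes (0.116% higher). With the cell line as a block, which the shared lines allow, WNT2B was also called in both comparisons and FZD10 in DFNB, giving 3 members against 0.582% of all genes in FGF3+10 and 4 against 0.956% in DFNB. The 2 comparisons share the hESC arrays. Fits without Shef3, H14 or Shef1, with 1 array fewer in every group, called no member in either comparison, and over all genes they called 0 without Shef3 and 0 without H14. In these fits FZD1 differed by 2.59 to 3.14 in FGF3+10 and by 2.56 to 3.17 in DFNB, and WNT5B by 3.74 to 4.19 and by 3.52 to 4.87. The count was also 0 in FGF3+10 without any 1 of its own or the hESC arrays, and in DFNB without any 1 of its own arrays or the hESC array of H14 or Shef1. The members' median difference was 0.40 in FGF3+10 and 0.68 in DFNB, while that over all genes was -0.19 in each, and differences below carry that shift. After quantile normalisation the members' medians were 0.38 and 0.66 and those of all genes -0.06 and -0.08.

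**Figure D1:**
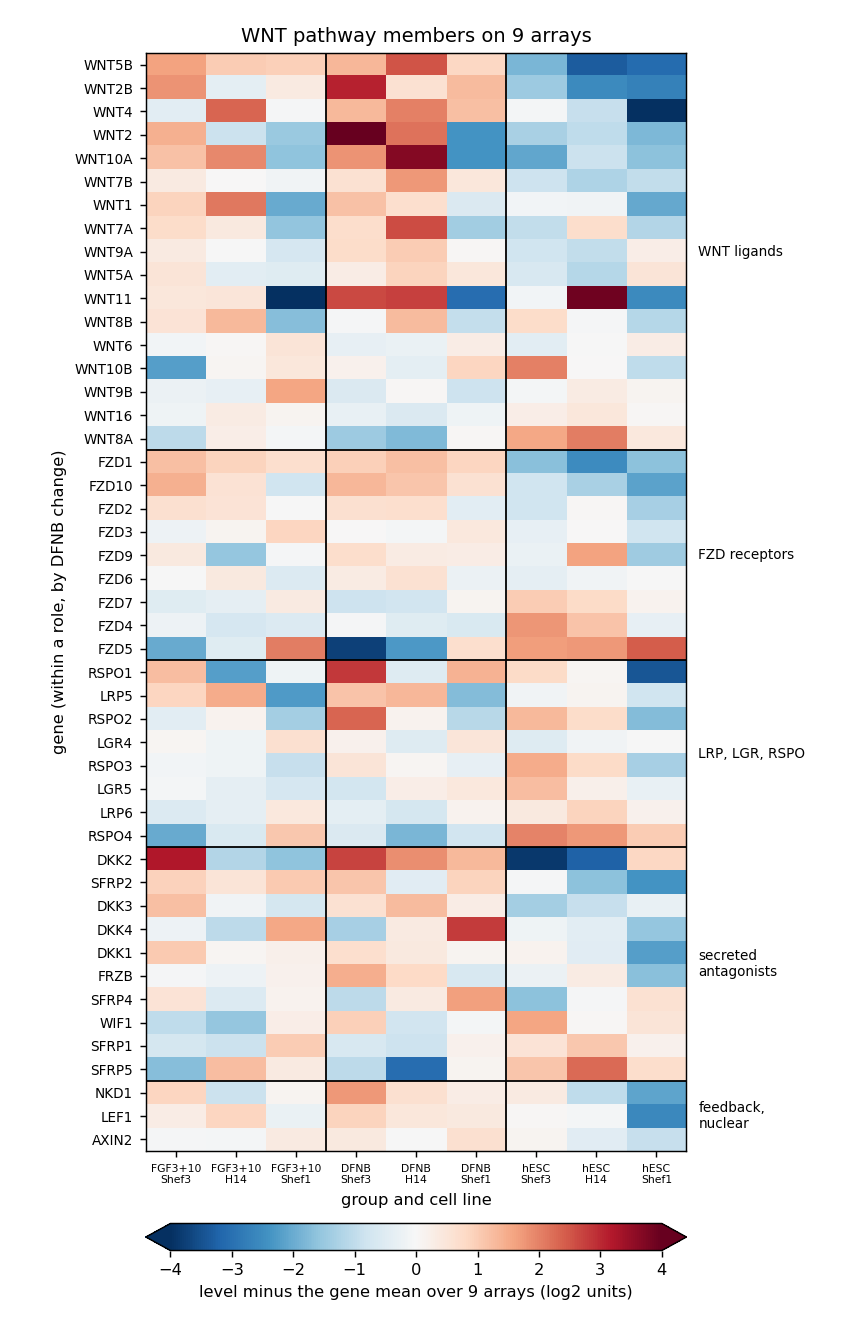
Level of each of the 47 members on each array, minus the gene's mean over the 9 arrays (log2 units, colour scale ending at 4 on either side), with arrays in columns by group and cell line and genes in rows by role. FZD1 and WNT5B are above their mean on all day 14 arrays and below it on the hESC arrays, as is WNT2B apart from the FGF3+10 array of H14, while FZD5 and RSPO4 are high in hESC.

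**Figure D2:**
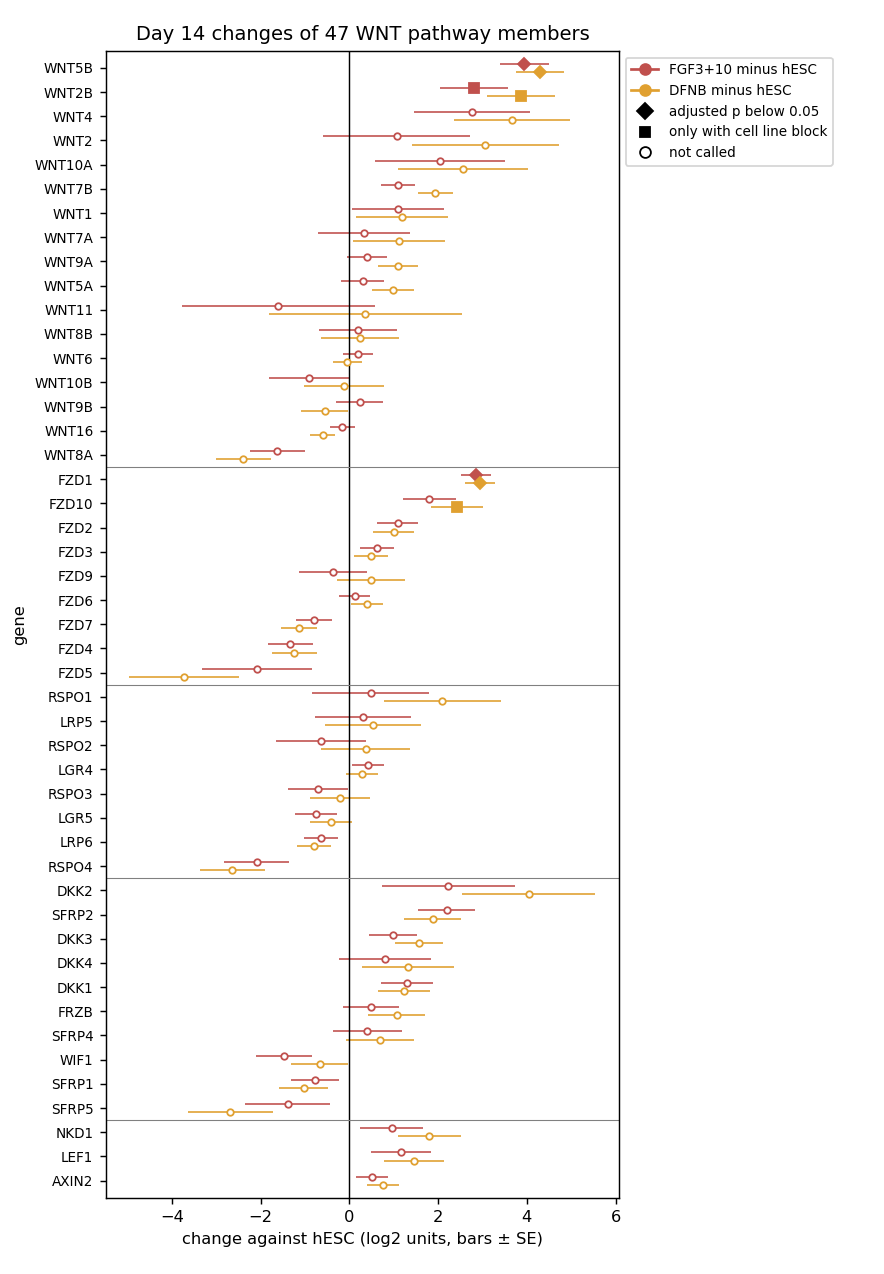
Difference of FGF3+10 and of DFNB from hESC (log2 units, horizontal axis) for each member, with bars of 1 SE, from 3 arrays a group. Filled diamonds mark adjusted p below 0.05, filled squares members called only with the cell line block. The 2 members called in both media, FZD1 and WNT5B, lie at differences of 2.86 and 3.95 in FGF3+10 and 2.95 and 4.30 in DFNB.

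Among the 17 WNT ligands, WNT5B rose at day 14, WNT2B rose in the fit with the cell line block, and none was called lower. WNT5B, a ligand mainly known for beta-catenin-independent signalling, had levels of 6.69, 6.08 and 6.02 in FGF3+10 and 6.38, 7.57 and 5.89 in DFNB, against 3.23, 1.72 and 1.99 in hESC. Every day 14 array lay above every hESC array, and all 3 hESC values were below 4. The difference was 3.95 ± 0.54 in FGF3+10 (limma adjusted p = 0.0406) and 4.30 ± 0.54 in DFNB (adjusted p = 0.0255). With values below 4 set to 4, the differences were 2.26 (adjusted p = 0.0515) and 2.61 (adjusted p = 0.0291), so the call in FGF3+10 ended. The 3 probe sets of WNT5B disagreed: a second one was 1.79 and 1.56 higher in FGF3+10 and DFNB, and the third differed by -0.12 and -0.02. With their mean the differences were 1.87 (adjusted p = 0.244) and 1.94 (adjusted p = 0.181).

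WNT2B, a canonical ligand of the dorsal brain and the retina margin in vertebrate embryos, had levels of 7.86, 5.67 and 6.42 in FGF3+10 and 9.15, 6.67 and 7.32 in DFNB, against 4.63, 3.53 and 3.37 in hESC. The groups at day 14 did not overlap with hESC, and Shef3 was the highest line in all 3 groups. The difference was 2.80 ± 0.76 in FGF3+10 (adjusted p = 0.197, and 0.0373 with the cell line block) and 3.87 ± 0.76 in DFNB (adjusted p = 0.0814, and 0.0173 with the block). All 4 probe sets of WNT2B differed the same way, by 2.80 to 6.53 in FGF3+10 and by 3.87 to 8.14 in DFNB. The one used here, the brightest, showed the smallest difference of the 4 in each comparison.

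**Figure D3:**
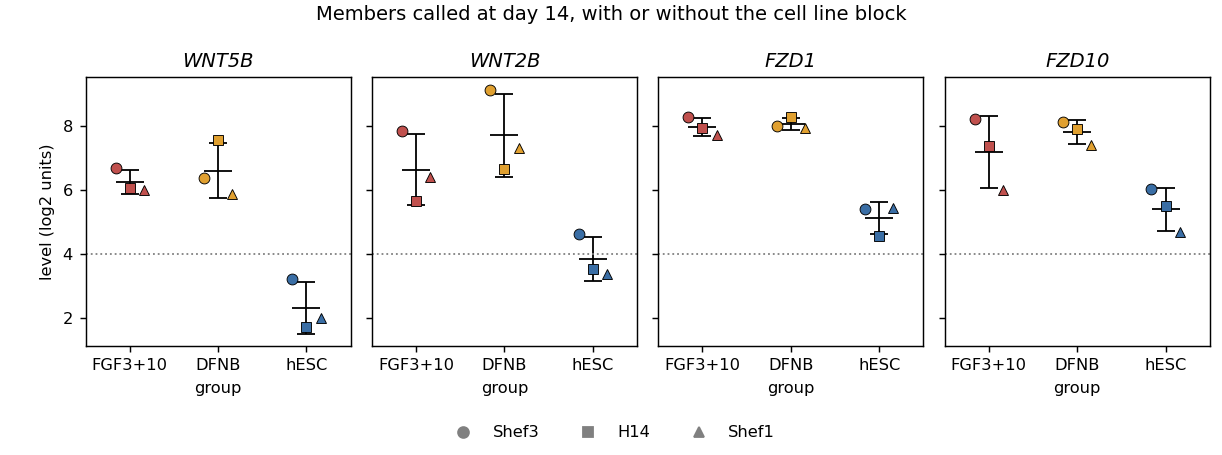
Levels of WNT5B, WNT2B, FZD1 and FZD10 (log2 units) by group, a symbol per cell line, with the mean and SD of the 3 arrays in black and the level 4 dotted. The day 14 arrays lie above the hESC arrays for WNT5B, WNT2B and FZD1, and for FZD10 the FGF3+10 array of Shef1, at 6.0, lies just below the hESC array of Shef3, at 6.02.

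**Figure D4:**
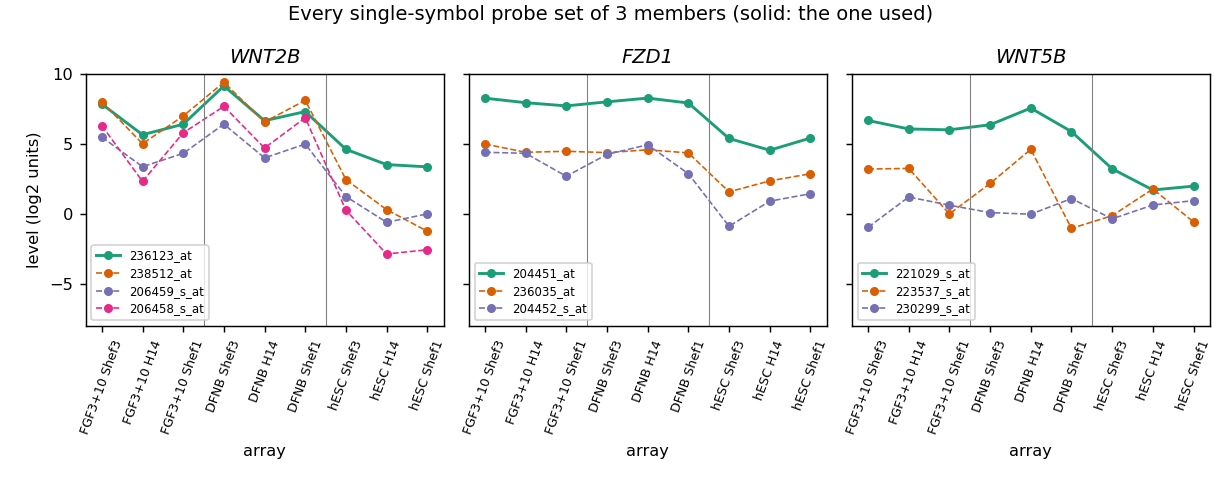
Level on each of the 9 arrays (log2 units) of every single-symbol probe set of WNT2B (4), FZD1 (3) and WNT5B (3), with the one used drawn solid. All probe sets of WNT2B and FZD1 average higher at day 14 than in hESC, while 1 of WNT5B stays between -0.95 and 1.22 on all arrays.

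The next largest ligand differences did not pass the test. WNT4, a ligand of kidney and gonad development, had levels of 3.79, 6.53 and 4.15 in FGF3+10 and 5.50, 6.22 and 5.42 in DFNB, against 4.12, 3.27 and -1.21 in hESC. The 3 DFNB arrays lay above hESC and those of FGF3+10 overlapped with it (differences 2.77 ± 1.31, adjusted p = 0.445, and 3.65 ± 1.31, adjusted p = 0.246). The hESC value of Shef1 was far below the others, and with values below 4 set to 4 the differences were 0.86 and 1.67. WNT10A, a ligand of skin appendages and teeth, had levels of 4.25, 5.0 and 1.47 in FGF3+10 and 4.87, 6.73 and 0.68 in DFNB, against 0.99, 2.20 and 1.42 in hESC. In Shef3 and H14 it was higher at day 14, and in Shef1 it was low on all 3 arrays (differences 2.04 ± 1.47 and 2.56 ± 1.47, adjusted p = 0.617 and 0.422). The second probe set of WNT10A differed by -0.51 and -0.37. With values below 4 set to 4, the differences of the one used were 0.42 and 1.20. WNT5A, the close relative of WNT5B, had levels of 8.87, 7.94 and 7.87 in FGF3+10 and 8.65, 9.25 and 8.82 in DFNB, against 7.73, 7.20 and 8.86 in hESC. Its groups overlapped, because the hESC array of Shef1 was as high as the day 14 arrays (differences 0.30 ± 0.48 and 0.98 ± 0.48, adjusted p = 0.847 and 0.362).

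The other 12 ligands differed from hESC by -1.63 (WNT8A) to 1.10 (WNT1) in FGF3+10 and by -2.39 (WNT8A) to 3.06 (WNT2) in DFNB, with no adjusted p below 0.0827, and 7 of the 12 averaged below 4 in every group. These values are of the brightest probe sets, and for WNT6, at 0.19 and -0.05, a second one differed by 2.12 and 3.80 and reached 6.43 and 7.16 in DFNB Shef3 and H14. The lowest adjusted p was that of WNT7B in DFNB, 1.94 ± 0.39 above hESC, with the probe set used below 4 on all arrays. WNT8A, a ligand of the early embryo's posterior axis in mouse, had levels of 2.44, 3.76 and 3.43 in FGF3+10 and 2.06, 1.73 and 3.54 in DFNB, against 5.04, 5.55 and 3.92 in hESC. The day 14 arrays of WNT8A all lay below hESC, and neither difference passed (-1.63 ± 0.62 and -2.39 ± 0.62, adjusted p = 0.342 and 0.145). WNT2 reached 6.67 in DFNB Shef3 and lay below 4 on the other 8 arrays. By direction, 13 of the 17 ligands were higher than hESC in FGF3+10 and 12 in DFNB. The share of all genes that were higher is not given here, nor for the other roles and lists. With values below 4 set to 4, the median difference of the 17 ligands was 0 in both comparisons.

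Of the 9 FZD receptors, FZD1 rose in both media, FZD10 rose in DFNB in the fit with the block, and FZD4, FZD5 and FZD7 averaged lower without passing the test. FZD1 had levels of 8.28, 7.96 and 7.73 in FGF3+10 and 8.02, 8.29 and 7.94 in DFNB, against 5.40, 4.56 and 5.43 in hESC. It had the narrowest spread of the members called, and the groups lay far apart in every line. The difference was 2.86 ± 0.33 in FGF3+10 (adjusted p = 0.0235) and 2.95 ± 0.33 in DFNB (adjusted p = 0.0185). Its 3 probe sets agreed in sign, with differences of 2.36 to 3.32 and of 2.17 to 3.53, and with their mean the adjusted p was 0.0525 in FGF3+10 and 0.0470 in DFNB.

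FZD10, a receptor of the dorsal neural tube in model vertebrates, had levels of 8.23, 7.40 and 6.0 in FGF3+10 and 8.13, 7.92 and 7.41 in DFNB, against 6.02, 5.51 and 4.68 in hESC. It was higher at day 14 in every line, and the lines kept the same order in all 3 groups. The difference was 1.80 ± 0.59 in FGF3+10 (adjusted p = 0.273, and 0.0785 with the block) and 2.42 ± 0.59 in DFNB (adjusted p = 0.129, and 0.0417 with the block). FZD10 has 1 probe set.

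FZD5, a receptor needed for eye development in mouse, differed widely between lines at day 14. Its levels were 6.81, 8.36 and 10.87 in FGF3+10 and 5.09, 6.52 and 9.50 in DFNB, against 10.51, 10.56 and 11.24 in hESC. Each line was lower at day 14, least so Shef1, and each was lower in DFNB than in FGF3+10. The difference was -2.09 ± 1.23 in FGF3+10 (adjusted p = 0.546) and -3.73 ± 1.23 in DFNB (adjusted p = 0.219, and 0.0627 with the block). The pluripotency markers ran in the same order of lines at day 14 (2.50, 8.82 and 8.85 in FGF3+10 and 2.43, 7.01 and 8.54 in DFNB), and their part in it was not tested. FZD7, a receptor abundant in embryonic stem cells, had levels of 9.58, 9.71 and 10.44 in FGF3+10 and 9.25, 9.31 and 10.19 in DFNB, against 11.10, 10.84 and 10.21 in hESC. The DFNB arrays lay below hESC by a margin that in Shef1 was only 0.02 (differences -0.80 ± 0.41 and -1.13 ± 0.41, adjusted p = 0.474 and 0.247). FZD4, the receptor for norrin in the eye and inner ear vessels, had levels of 6.21, 5.76 and 5.88 in FGF3+10 and 6.38, 5.94 and 5.80 in DFNB, against 8.18, 7.57 and 6.10 in hESC. The day 14 arrays lay between 5.76 and 6.38, below all 3 hESC arrays apart from that of Shef1 (differences -1.34 ± 0.51 and -1.24 ± 0.51, adjusted p = 0.34 and 0.292).

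The other 4 receptors, FZD2, FZD3, FZD6 and FZD9, differed from hESC by -0.37 (FZD9) to 1.09 (FZD2) in FGF3+10 and by 0.40 (FZD6) to 1.00 (FZD2) in DFNB, with no adjusted p below 0.336. FZD9 stayed below 4 on all arrays.

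None of the 8 co-receptors, LGR receptors and RSPO ligands was called. LRP6, the co-receptor of canonical signalling, had levels of 7.84, 8.04 and 8.81 in FGF3+10 and 7.99, 7.71 and 8.55 in DFNB, against 8.78, 9.29 and 8.57 in hESC. On the probe set used it was lower at day 14 in Shef3 and H14 and within 0.3 of hESC in Shef1 (differences -0.65 ± 0.38 and -0.80 ± 0.38, adjusted p = 0.548 and 0.352). Its other probe sets were lower in Shef3 but higher in H14 (5.56 in both media against 5.33 in hESC, and 5.76 and 5.83 against 4.40). On average they differed by -0.22 and -0.50, and by 0.20 and -0.41. LGR5, a receptor for RSPO proteins and a marker of adult stem cells, had levels of 6.18, 5.89 and 5.57 in FGF3+10 and 5.52, 6.51 and 6.66 in DFNB, against 7.48, 6.46 and 5.96 in hESC. Its lines moved in different ways in DFNB, and neither difference passed (-0.76 ± 0.47 and -0.41 ± 0.47, adjusted p = 0.564 and 0.705). RSPO3 had levels of 7.53, 7.48 and 6.73 in FGF3+10 and 8.17, 7.74 and 7.33 in DFNB, against 9.13, 8.43 and 6.32 in hESC. It was lower at day 14 in Shef3 and H14 and higher in Shef1 (differences -0.71 ± 0.67 and -0.22 ± 0.67, adjusted p = 0.707 and 0.902). RSPO4, known for its part in nail formation, had levels of 0.80, 2.19 and 3.90 in FGF3+10 and 2.24, 0.97 and 2.03 in DFNB, against 4.78, 4.54 and 3.84 in hESC. The DFNB arrays lay below all hESC arrays, and all day 14 values were below 4 (differences -2.09 ± 0.74 and -2.64 ± 0.74, adjusted p = 0.307 and 0.164). LRP5, LGR4, RSPO1 and RSPO2 differed from hESC by -0.64 (RSPO2) to 0.48 (RSPO1) in FGF3+10 and by 0.28 (LGR4) to 2.09 (RSPO1) in DFNB, with no adjusted p below 0.465.

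None of the 10 secreted antagonists was called. On average 7 were higher than hESC in each medium, a count without its share over all genes. SFRP2, which binds WNT ligands, had levels of 11.71, 11.31 and 11.84 in FGF3+10 and 11.89, 10.33 and 11.67 in DFNB, against 10.75, 9.15 and 8.38 in hESC. The FGF3+10 arrays lay above all hESC arrays, and each line was higher in both media than at day 0. The difference was 2.19 ± 0.64 in FGF3+10 (adjusted p = 0.223, and 0.131 with the block) and 1.87 ± 0.64 in DFNB (adjusted p = 0.23, and 0.133 with the block). SFRP1, its relative, had levels of 9.66, 9.50 and 11.37 in FGF3+10 and 9.71, 9.51 and 10.53 in DFNB, against 10.91, 11.43 and 10.52 in hESC. It was lower at day 14 in Shef3 and H14 but not in Shef1 (differences -0.78 ± 0.55 and -1.04 ± 0.55, adjusted p = 0.611 and 0.393). The other probe sets of SFRP1 were lower than hESC in DFNB Shef1.

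DKK1, an inhibitor of LRP5 and LRP6 and itself a known canonical target, whose promoter is shown above, had levels of 9.23, 8.26 and 8.38 in FGF3+10 and 8.85, 8.56 and 8.27 in DFNB, against 8.30, 7.71 and 5.97 in hESC. It was higher at day 14 in every line, most in Shef1, whose hESC array was the lowest (differences 1.30 ± 0.59 and 1.24 ± 0.59, adjusted p = 0.426 and 0.347). DKK2, which can inhibit or enhance signalling depending on its partners, had levels of 8.22, 3.86 and 3.40 in FGF3+10 and 7.73, 6.87 and 6.33 in DFNB, against 1.16, 1.77 and 5.85 in hESC. All DFNB arrays lay above hESC, while the FGF3+10 array of Shef1 lay 2.45 below its own hESC array (differences 2.23 ± 1.50 and 4.05 ± 1.50, adjusted p = 0.593 and 0.259). Its second probe set differed by -0.10 and -0.04, the mean of both by 1.06 and 2.00, and with values below 4 set to 4 the differences were 0.79 and 2.36. DKK3, a divergent member of the family, had levels of 10.56, 9.21 and 8.65 in FGF3+10 and 9.94, 10.60 and 9.64 in DFNB, against 7.99, 8.42 and 9.06 in hESC. The DFNB arrays again lay above hESC (differences 0.98 ± 0.54 and 1.57 ± 0.54, adjusted p = 0.506 and 0.232). The other 5 antagonists, DKK4, FRZB, SFRP4, SFRP5 and WIF1, differed from hESC by -1.48 (WIF1) to 0.81 (DKK4) in FGF3+10 and by -2.69 (SFRP5) to 1.32 (DKK4) in DFNB, with no adjusted p below 0.244.

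The 3 feedback and nuclear genes, which canonical signalling is known to induce in many cell types, averaged higher at day 14 and were not called. LEF1 had levels of 8.63, 9.18 and 8.07 in FGF3+10 and 9.24, 8.78 and 8.71 in DFNB, against 8.38, 8.26 and 5.75 in hESC. It was higher in every line, and most in Shef1, whose hESC array was low (differences 1.17 ± 0.68 and 1.45 ± 0.68, adjusted p = 0.537 and 0.343). The other probe sets of LEF1 differed by 1.97 and 1.93, and by 0.58 and -0.31. AXIN2, a scaffold of the complex that degrades beta-catenin and a common readout of canonical signalling, had levels of 7.51, 7.48 and 7.92 in FGF3+10 and 7.96, 7.53 and 8.20 in DFNB, against 7.67, 7.11 and 6.62 in hESC. The hESC array of Shef3 lay inside the range of the day 14 arrays (differences 0.50 ± 0.36 and 0.76 ± 0.36, adjusted p = 0.614 and 0.345). The other probe sets of AXIN2, all below 4, differed by 0.96 and 1.22, by 0.45 and -0.41, and by -0.54 and -0.21. The mean of its probe sets differed by 0.34 in each medium. NKD1, an antagonist of DVL proteins, had levels of 4.82, 3.12 and 4.09 in FGF3+10 and 5.72, 4.61 and 4.26 in DFNB, against 4.35, 2.96 and 1.87 in hESC (differences 0.95 ± 0.71 and 1.80 ± 0.71, adjusted p = 0.632 and 0.279). Each line was higher than its hESC array in both media for NKD1 on the probe set used. Another of its probe sets differed by -0.02 and 0.98, and with values below 4 set to 4 the differences were 0.19 and 0.75.

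Counted without adjustment, 7 members were higher and 4 lower in FGF3+10 at p below 0.05, against 4.52% and 7.47% of all genes, and 11 were higher and 6 lower in DFNB, against 6.11% and 9.69%. All 3 arrays lay above hESC for 5 members in FGF3+10 (5.68% of all genes) and for 9 in DFNB (7.80%). They lay below it for 1 member in FGF3+10 (11.3%) and for 7 in DFNB (14.3%). Of the 29 members with several probe sets, all sets had the same sign in 17 in each comparison with hESC, and in 20 for FGF3+10 against DFNB.

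The comparison of FGF3+10 with DFNB asks what the added FGFs changed, and no member was called in it, as was true of all genes (0.00% called, also with the block). At an unadjusted limma p below 0.05 there were also 0 members, against 1.52% of all genes. With the block there were 2, WNT2B and WNT11, both with lower means in FGF3+10, against 2.72% of all genes. The members' median difference was -0.28, and that of all genes 0.00, with 15 members higher and 32 lower in FGF3+10. In all 3 lines 4 members were higher (9.40% of all genes) and 10 lower (12.5%). WNT16 was the 1 member with all FGF3+10 arrays above all DFNB arrays (4.19, 4.68 and 4.47 against 4.04, 3.78 and 4.19), a share that was 1.46% over all genes. WNT7B was the 1 member below (1.75, 1.40 and 1.25 against 2.00, 3.12 and 1.84, where all genes gave 1.72%). All of these WNT7B values are below 4. On its second probe set the arrays of the media overlapped (-0.74, 0.49 and -1.08 against 1.24, 4.45 and -1.73). For WNT16 the gap between the nearest arrays was under the second decimal, and its second probe set differed the other way, by -1.43. WNT2 (-2.0), WNT11 (-1.96), DKK2 (-1.81), FZD5 (1.64), RSPO1 (-1.61), SFRP5 (1.30), WNT2B (-1.07) and RSPO2 (-1.0) differed between the media by 1 unit or more on average, and in all 8 the arrays of the groups overlapped. Of these 8, WNT11 was below 4 on all arrays, and WNT2, RSPO1 and SFRP5 reached 4 on 1 array each. With values below 4 set to 4, the differences of WNT2, RSPO1 and SFRP5 were -0.89, -0.17 and 0. Within lines, FZD5 differed by 1.72, 1.84 and 1.36 and WNT2B by -1.30, -1.0 and -0.90.

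No member was called between cell lines in the limma F test with group as a term (91 genes, 0.460%, were called over all genes, and 20.3% had an unadjusted p below 0.05). The lowest adjusted p values were 0.0620 for WNT11 and 0.0796 for WNT2B. WNT11, a ligand of cell movement in gastrulation, had levels of -0.33, -0.28 and -5.30 in FGF3+10 and 1.87, 1.95 and -3.84 in DFNB, against -0.88, 3.11 and -3.32 in hESC. It was lowest in Shef1 in all groups, below level 4 throughout, and H14 exceeded Shef1 by 5.75 (pairwise adjusted p = 0.0455, where 1.05% of all genes were called). A test of whether the day 14 change differed between lines called no member and no gene (0.00%, and 19.4% at an unadjusted p below 0.05). Its residual comes only from the pair of day 14 arrays of a line, which differ in medium, so it does not measure repeats of a line. Within lines, the members' median difference from hESC was 0.35, 0.06 and 0.32 in FGF3+10 and 0.86, 0.47 and 0.58 in DFNB, against medians of all genes of -0.39, -0.23 and 0.06 and of -0.31, -0.29 and 0.04.

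**Figure D5:**
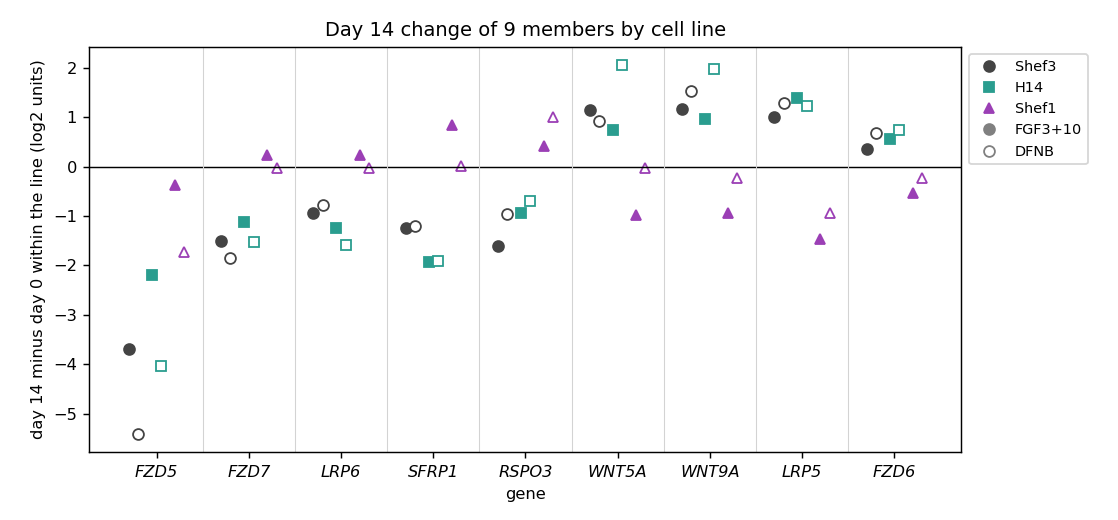
Day 14 level minus day 0 level within each line (log2 units) for 9 members, filled for FGF3+10 and open for DFNB, a symbol and colour per line. Shef1 stands on the other side of 0 from both other lines for SFRP1, RSPO3, WNT5A, WNT9A, LRP5 and FZD6, while FZD5 is lower at day 14 in every line. For SFRP1 and WNT5A the DFNB differences in Shef1 are only 0.006 and -0.04. The other probe sets of SFRP1, not drawn, are lower than hESC in DFNB Shef1. LRP5 is below 4 on every Shef1 array.

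Of the other genes of the pathway, those at the membrane held the only calls. Of 10 membrane regulators, SOSTDC1, a secreted inhibitor that binds LRP6, was called higher in FGF3+10, with levels of 6.40, 7.25 and 6.24, and had 6.58, 6.01 and 6.24 in DFNB, against 3.86, 4.17 and 3.36 in hESC. The day 14 and hESC arrays did not overlap (differences 2.83 ± 0.38, adjusted p = 0.0357, and 2.48 ± 0.38, adjusted p = 0.0553, or 0.0420 with the block). APCDD1, a membrane protein that inhibits WNT signalling, had levels of 8.43, 8.26 and 6.58 in FGF3+10 and 8.96, 8.72 and 7.69 in DFNB, against 6.66, 6.12 and 4.50 in hESC. It was called only with the block (differences 2.00, adjusted p = 0.0499, and 2.69, adjusted p = 0.0242). In this list 9 of 10 genes were higher than hESC in each medium, with medians of 0.70 and 0.67.

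No gene was called in the other 5 lists, with or without the block. In the list of WNT secretion and processing (4 of 5 measured) 1 gene was higher than hESC in each medium, WLS, the carrier of WNT proteins, by 1.11 ± 0.33 and 1.47 ± 0.33 (adjusted p = 0.233 and 0.11), and TRABD2B, a protease that inactivates WNT proteins, differed by -2.28 ± 0.56 in both (adjusted p = 0.159 and 0.133). Among 14 other receptors and planar polarity genes 7 and 8 were higher, and GPC4 and ROR2, with the largest mean over both media, differed by -0.87 and 0.60 in FGF3+10 and by -1.01 and 0.99 in DFNB. Among 14 cytoplasmic genes 8 and 7 were higher, with medians of 0.08 and -0.03. Among 11 nuclear factors 6 and 5 were higher, led by PYGO1 (1.08 and 1.58) and TLE4 (0.96 and 1.08). Among 14 target genes 4 were higher in each medium, with medians of -0.40 and -0.30. CDX4, a posterior homeobox gene with a mean of -1.13 over the arrays, differed by -3.58 and -4.04, and TNFRSF19 by 1.31 and 1.89.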

How the data were processed

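Gene expression was measured on 9 Affymetrix arrays, 3 per group and 1 per cell line, from 200 ng of total RNA amplified from the 3' end and labelled with biotin, per the labels' protocols. The authors deposited log values, here read as log2, with a median of 3.20 on every array and a range of -14.4 to 13.3. Software, probe summary and background correction: not given in the sources used here. There is no read depth on arrays, and their number limits the precision.

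The table holds 54675 probe sets, 62 of them controls. Of these, 41091 have 1 gene symbol and 1801 several, and symbols were updated through Entrez identifiers (41037 matched). The 47 members have 99 single-symbol probe sets, and 6 probe sets of FZD8 and WNT3 with several symbols were not used. The fit used limma 3.58.1 (lmFit, eBayes; R 4.3.3) with a mean per group, all 9 arrays sharing 1 spread, and Benjamini-Hochberg adjustment over 19775 genes. The script was tested on simulated data. Members and lists were chosen with earlier results of these data known.

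Members given array by array are those called in any comparison, with the block or between lines, up to 4 of each role with the largest mean difference and a group mean of at least 4, and WNT5A, WNT5B, LEF1, AXIN2, SFRP1, DKK1, FZD5 and FZD7. WNT2, WNT6, WNT7B, WNT8A, WNT11 and WNT16 were added after their values were seen. The replicate number marks the cell line, so the numbers pair the arrays. Deviations from the group means correlated within Shef3, H14 and Shef1 at 0.181, 0.258 and 0.283 for FGF3+10 and hESC, at 0.105, 0.0861 and 0.338 for DFNB and hESC, and at 0.400, 0.331 and 0.713 for FGF3+10 and DFNB. Nothing says that the arrays of a group come from more than 1 culture per line. Alternatives are given in the closing section.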

Additional observations from a re-analysis of the deposited data

Results flagged for a closer look

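For 10 of the 47 members, both day 14 arrays of 1 line moved one way from its hESC array and all 4 of the other lines moved the opposite way. The share of all genes with this pattern is not given here, so the count cannot be read as particular to the members. Both day 14 differences of a line share its hESC array. The rule set no smallest size, and differences of -0.04 (WNT5A, DFNB Shef1) and -0.02 (LGR4, FGF3+10 H14) met it. The line apart was Shef1 for 6, H14 for 3 and Shef3 for 1. The values are the mean day 14 difference in that line minus the mean in the other lines, in log2 units.

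For Shef1 it was 2.00 for SFRP1, 1.76 for RSPO3, -0.97 for FZD6, -1.72 for WNT5A, -2.0 for WNT9A and -2.43 for LRP5. SFRP1, for example, on the probe set used, averaged 0.43 above its hESC array in Shef1 and 1.57 below it in the others. The other probe sets of SFRP1 did not share this rise. All of them were lower than hESC in DFNB Shef1, and in FGF3+10 Shef1 they differed in sign. For H14 it was -0.81 for LGR4, -3.40 for FZD9 and -4.09 for RSPO1. For Shef3 it was 3.41 for WNT11. FZD9 and WNT11 were below 4 on all arrays and RSPO1 reached 4 on 1, whereas SFRP1, RSPO3, WNT5A, FZD6 and LGR4 reached it on all 9. LRP5 was below 4 on every Shef1 array (2.29 in FGF3+10, 2.81 in DFNB and 3.75 in hESC). With values below 4 set to 4, its Shef1 arrays would be equal.

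The limma test of the difference between lines gave adjusted p of 0.203 (LRP5) to 0.444 (WNT11), so none passed. The Shef1 arrays are also those with poly-A spike-ins at 7.21 to 7.28, and the part of that in these values was not tested.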

How the results depend on the processing

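The 2 members called in FGF3+10 against hESC, FZD1 and WNT5B, were 0 with the mean of a gene's probe sets, 1 with values below 4 set to 4 (FZD1), 0 with only the arrays of the 2 groups in the fit, and 0 to 2 when a replicate was left out. The 2 called in DFNB were 4 with the replicate block, 1 with the mean of probe sets (FZD1), 3 without genes averaging below 4 (with WNT2B, adjusted p = 0.0477), 12 with array weights, whose fit gave a convergence warning, 0 with only the arrays of the 2 groups, 5 with the floor of 4 and the block together, an alternative chosen after seeing the data (the fifth being FZD5), and 0 to 2 when a replicate was left out. Over all genes in DFNB against hESC, array weights called 602 higher and 1010 lower, where the main fit called 23 and 17. Leaving out genes averaging below 4 gave 93 and 29, and floor and block together 216 and 210. Without any 1 of the 3 lines, or any 1 array of FGF3+10 or hESC, no member was called in FGF3+10. Without any line, any DFNB array, or the hESC array of H14 or Shef1, none was called in DFNB. Without DFNB Shef3 or DFNB Shef1, which enter through the shared spread, 1 member was called in FGF3+10 (FZD1), and without FGF3+10 H14, 1 in DFNB (FZD1). Over all genes the fits without Shef3 or H14 called 0. In these fits the differences of FZD1 and WNT5B stayed positive, at 2.56 to 3.17 and 3.52 to 4.87.

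Between cell lines the count was 1 with the mean of probe sets (WNT11), 1 without genes averaging below 4 (WNT2B), 12 with array weights, and 0 to 1 when a replicate was left out (WNT11, without hESC Shef3), and for the day 14 change between lines 5 with the floor of 4 (WNT8A, RSPO4, FZD4, WNT10B and SFRP5). The share of all genes called in these tests of the lines under the alternatives is not given here. The counts therefore cannot be read as particular to the members. FGF3+10 against DFNB gave 0 members under every alternative run. Over all genes, calls against hESC numbered 35 in FGF3+10 and 40 in DFNB, and 115 and 189 with the replicate block. With the floor they were 54 higher and 69 lower in FGF3+10, and 94 higher and 89 lower in DFNB. Added to the fit on all genes, the block changed the calls of WNT2B in both comparisons and FZD10 in DFNB and no other. Floor and block together also called FZD10 in FGF3+10 (adjusted p = 0.0463). With CTTTGAT and CTTTGAA alone as the motif, 6.86% of all windows and 1 of 30 members held it. Values below 4 spread more than higher ones and limit the ligands most.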
